A study of Homo sapiens and Mus musculus with 20 samples.

Results

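Trimethylation of histone H3 at lysine 27 (H3K27me3) was compared between KDM6A knockout (KO) and KDM6A wild-type (WT) cells of ARP1, a human multiple myeloma line. The comparison rests on 2 of the 20 ChIP-seq libraries of the study, 1 per genotype, and its members are all regions that the authors called in these libraries on chromosomes 1 to 22 and X. Regions with equal start and end were to be merged, and none had to be. The KO list held 11865 regions and the WT list 17355 regions. A KO region with no WT region over it is called gained, a WT region with no KO region over it is called lost, and a region with at least 1 bp of overlap is called kept. With 1 library per genotype these words say only in which list a region stands, and no difference below has a replicate check or a test.

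The study profiled histone marks and the KDM6A protein in myeloma cells and mouse fibroblasts, under a title that concerns the immunogenicity of myeloma. Besides the H3K27me3 libraries of KO and WT cells, this comparison used the H3K27ac, H3K4me1, KDM6A and input libraries of ARP1, and H3K27me3 in ARP1 cells with a JmjD-dead KDM6A, whose demethylase domain is inactive. The labels do not say whether the KO cells are a single clone. Chromatin was crosslinked, sonicated, immunoprecipitated and tagged with adapters by a transposase on the beads. After removal of duplicate fragments the KO library held 6.60 M fragments (M, 1000000) and the WT library 5.03 M, and the share of redundant fragments was 0.41 in KO and 0.42 in WT. The input libraries were far shallower, with 0.725 M fragments in KO, 0.384 M in WT and 0.223 M in JmjD-dead cells. Absence of an input region therefore says little. The KDM6A antibody gave 44936 regions in KO cells from 20.2 M fragments and 90964 regions in WT cells from 11.9 M, so the KO list was shorter but not empty. By H3K27ac, all 10 plasma cell marker genes examined carried a region in KO and in WT cells, against 2 of 8 T and NK cell markers and none of 8 myeloid and erythroid markers in either genotype. Of 8 epithelial and stromal markers 4 carried one in KO and 3 in WT.

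H3K27me3 is written by Polycomb repressive complex PRC2, whose catalytic subunit is EZH2, and is the mark of facultative silencing at developmental genes such as the HOX clusters. KDM6A (UTX) removes methyl groups from the same lysine and works with the KMT2C and KMT2D complexes at enhancers. A lysine 27 that is acetylated cannot be methylated, so on 1 histone tail H3K27ac and H3K27me3 exclude each other. KDM6A is among the chromatin regulators that are mutated or deleted in multiple myeloma.

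The promoters on which the genotypes differed are shown by 8 sequences, each of 300 bases from 250 before to 50 after the start of transcription, taken from RefSeq (GRCh38.p14) and written in the direction of transcription with every CpG in capitals. TMEM141 (chr9:136791094-136791393, plus strand), PRRC2A (chr6:31620465-31620764, plus strand) and UCHL3 (chr13:75549252-75549551, plus strand) carried a region in KO cells only. Among gained genes with no WT region within 10 kb, they had the highest ranked regions over a promoter on H3K27ac of KO cells (TMEM141, PRRC2A) and off it (UCHL3), although the UCHL3 promoter itself also overlapped an H3K27ac region. H2AC20 (chr1:149886668-149886967, plus strand) and BST2 (chr19:17405581-17405880, minus strand) were also marked in KO cells only. They were chosen after their values were seen because they stand for the histone genes and the promoters with a KDM6A region described below. TREML2 (chr6:41201100-41201399, minus strand) and MAP1LC3C (chr1:241999049-241999348, minus strand) carried a region in WT cells only, and were chosen in the same way, on H3K27ac of WT cells (TREML2) and off it (MAP1LC3C). TAF11L10 (chr5:17597779-17598078, minus strand) carried one in both.
TMEM141: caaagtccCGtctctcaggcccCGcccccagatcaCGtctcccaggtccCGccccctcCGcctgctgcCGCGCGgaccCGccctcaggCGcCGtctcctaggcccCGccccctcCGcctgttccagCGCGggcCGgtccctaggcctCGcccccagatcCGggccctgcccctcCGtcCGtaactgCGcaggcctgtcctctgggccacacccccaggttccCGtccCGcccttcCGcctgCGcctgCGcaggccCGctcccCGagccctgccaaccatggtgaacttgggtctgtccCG
PRRC2A: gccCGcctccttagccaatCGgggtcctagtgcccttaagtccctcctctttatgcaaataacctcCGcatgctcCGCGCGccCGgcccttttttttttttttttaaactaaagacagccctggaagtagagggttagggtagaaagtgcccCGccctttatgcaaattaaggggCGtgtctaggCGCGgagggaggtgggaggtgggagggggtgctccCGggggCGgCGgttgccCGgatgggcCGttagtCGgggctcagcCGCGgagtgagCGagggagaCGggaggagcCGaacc
UCHL3: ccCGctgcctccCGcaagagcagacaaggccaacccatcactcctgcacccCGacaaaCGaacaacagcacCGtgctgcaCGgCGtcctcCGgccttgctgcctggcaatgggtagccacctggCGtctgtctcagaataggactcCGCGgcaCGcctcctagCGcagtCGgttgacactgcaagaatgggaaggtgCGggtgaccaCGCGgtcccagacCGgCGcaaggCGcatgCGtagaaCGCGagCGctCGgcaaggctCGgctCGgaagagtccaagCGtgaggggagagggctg
H2AC20: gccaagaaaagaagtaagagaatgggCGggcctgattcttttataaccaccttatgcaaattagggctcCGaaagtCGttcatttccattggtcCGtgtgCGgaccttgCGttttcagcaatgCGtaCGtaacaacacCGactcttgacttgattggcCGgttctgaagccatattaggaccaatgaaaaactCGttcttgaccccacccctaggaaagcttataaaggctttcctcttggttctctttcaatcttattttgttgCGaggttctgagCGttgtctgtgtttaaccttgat
BST2: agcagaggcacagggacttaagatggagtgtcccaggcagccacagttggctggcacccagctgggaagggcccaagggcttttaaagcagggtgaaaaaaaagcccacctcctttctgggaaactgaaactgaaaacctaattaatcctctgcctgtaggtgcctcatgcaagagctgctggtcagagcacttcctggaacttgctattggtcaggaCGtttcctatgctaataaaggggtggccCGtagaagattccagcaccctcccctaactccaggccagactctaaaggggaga
TREML2: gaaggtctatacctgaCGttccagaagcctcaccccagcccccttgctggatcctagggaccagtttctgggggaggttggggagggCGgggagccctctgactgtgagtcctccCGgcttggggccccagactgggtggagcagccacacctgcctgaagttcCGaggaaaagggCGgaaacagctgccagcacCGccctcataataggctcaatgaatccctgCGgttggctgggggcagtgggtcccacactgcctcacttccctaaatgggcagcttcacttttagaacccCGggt
MAP1LC3C: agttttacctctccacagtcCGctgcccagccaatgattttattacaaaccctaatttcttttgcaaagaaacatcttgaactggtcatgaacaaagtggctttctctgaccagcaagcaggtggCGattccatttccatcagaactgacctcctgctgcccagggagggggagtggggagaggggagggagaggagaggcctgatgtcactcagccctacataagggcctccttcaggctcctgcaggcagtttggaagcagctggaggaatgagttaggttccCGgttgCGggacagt
TAF11L10: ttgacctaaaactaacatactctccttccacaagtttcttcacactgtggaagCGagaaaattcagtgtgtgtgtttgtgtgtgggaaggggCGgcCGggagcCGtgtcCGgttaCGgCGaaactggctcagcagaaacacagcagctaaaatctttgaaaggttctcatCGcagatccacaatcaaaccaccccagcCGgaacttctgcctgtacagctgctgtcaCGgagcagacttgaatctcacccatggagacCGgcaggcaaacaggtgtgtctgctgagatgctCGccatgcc
These stretches hold 29, 22, 28 and 13 CpGs in TMEM141, PRRC2A, UCHL3 and H2AC20, and 2 in BST2. TREML2 holds 8, MAP1LC3C 4 and TAF11L10 12.

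In part, the regions went against their label. Of the KO regions, 8404 (70.8%) overlapped an H3K27ac region of KO cells, and of the WT regions 11177 (64.4%) overlapped one of WT cells, although H3K27ac covered 2.73% of the effective genome in KO and 2.63% in WT. The share was higher still among the 1000 regions of lowest q value, at 97.8% in KO and 98.2% in WT. Of these 1000, 891 in KO and 880 in WT lay on an input region or in 1 of 73 dense 1-Mb bins, among them bins beside centromeres and a block at 9 to 14 Mb of chromosome 2 with 535 KO and 607 WT regions. Among the remaining regions the share on H3K27ac was 94.5% in KO and 94.2% in WT. The highest region of both lists stood at MAP3K15 on chromosome X, with 5966 fragments at its summit in KO cells and 4907 in WT cells, and it also stood on an input region. Median height was 7 fragments in KO and 6 in WT, and median width was 316 bp in KO and 293 bp in WT. Broad domains were rare: after joining regions within 3 kb, 86 stretches of at least 10 kb were found in KO and 98 in WT, of which 84 in KO and 91 in WT lay in dense bins or on input.

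Gains and losses were both numerous. Gained regions numbered 7484 of 11865 KO regions (63.1%, exact Clopper-Pearson 95% interval 62.2 to 63.9%), and lost regions numbered 12979 of 17355 WT regions (74.8%, 74.1 to 75.4%). All such intervals cover counting error only. Split by acetylation, gains were 4544 of 8404 KO regions on H3K27ac (54.1%) and 2940 of 3461 off H3K27ac (84.9%). Losses were 7359 of 11177 WT regions on H3K27ac (65.8%) and 5620 of 6178 off H3K27ac (91.0%). In both genotypes the share without a counterpart was higher off H3K27ac than on it. The KO list was shorter than the WT list on each chromosome, with ratios between 0.45 on X and 0.952 on chromosome 19.

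The balance between gains and losses depended on the threshold. Among regions with −log10 q of at least 5, gains were 3386 of 5052 KO regions (67.0%) and losses 1385 of 3023 WT regions (45.8%), so gains outnumbered losses. On H3K27ac these were 2631 gains (62.2%) and 1167 losses (42.5%), and off H3K27ac 755 gains (91.5%) and 218 losses (78.4%). When both lists were taken to 11865 regions, gains were 7886 (66.5%) and losses 7950 (67.0%), almost even. On H3K27ac these were 4862 gains (57.9%) and 5122 losses (59.6%), and off it 3024 gains (87.4%) and 2828 losses (86.5%). When regions with −log10 q of at least 5 were set against every region of the other list, 2245 of 5052 KO regions (44.4%) were gained and 1039 of 3023 WT regions (34.4%) lost. On H3K27ac these were 1637 gains (38.7%) and 856 losses (31.2%), and off it 608 gains (73.7%) and 183 losses (65.8%). The q threshold demanded 8 fragments in both lists, which is 1.21 per M fragments in the deeper KO library and 1.59 per M in WT. Regions just inside it had −log10 q of 5.31 in KO and 6.19 in WT, and those just outside, with 7 fragments, 4.14 in KO and 4.88 in WT. At a matched height of 1.3 fragments per M, at least 9 fragments in KO and 7 in WT, the balance turned again, with 1584 of 3287 KO regions gained (48.2%) and 3360 of 5091 WT regions lost (66.0%). On H3K27ac these were 1259 gains (43.7%) and 2664 losses (61.5%), and off it 325 gains (80.4%) and 696 losses (91.3%). Depth and genotype cannot be told apart with 1 library each, and no direction of the total is drawn from these counts.

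**Figure D1:**
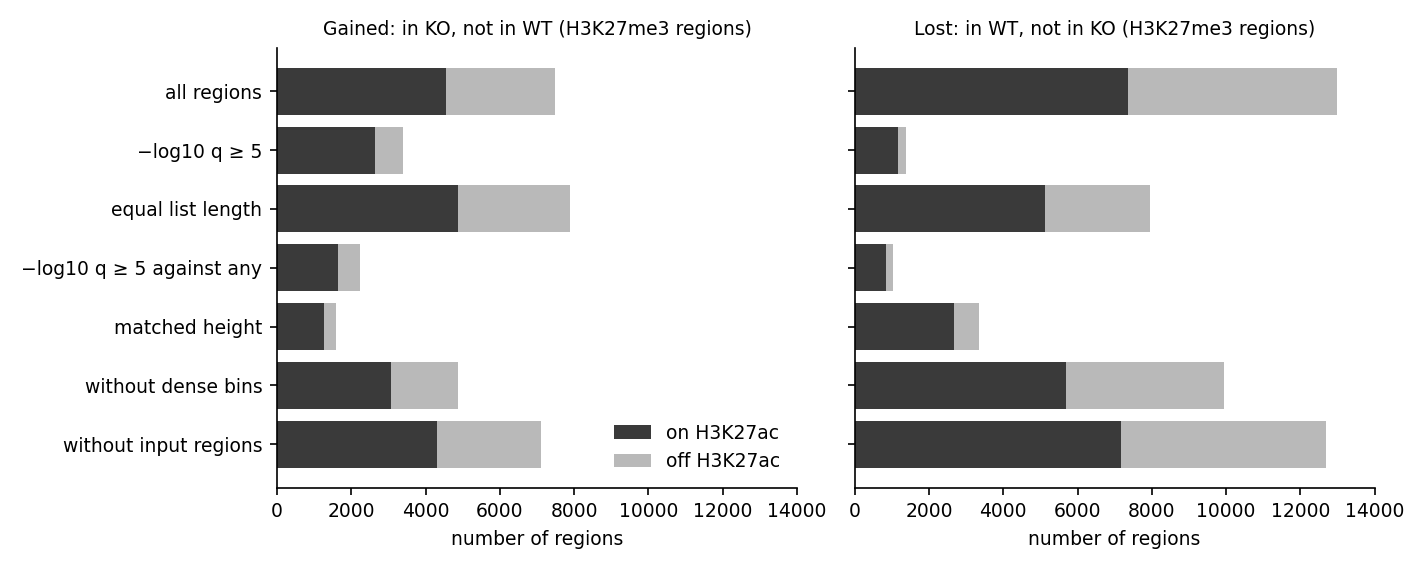
Numbers of H3K27me3 regions gained in KO (left) and lost in KO (right) in ARP1 cells under 7 settings, with regions on H3K27ac of the same genotype in dark and regions off it in light grey; horizontal axes give the number of regions. Over all regions 7484 were gained and 12979 lost, while at −log10 q of at least 5 there were 3386 gained and 1385 lost.

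Whether a region was found again went with its height. Of the KO regions with 5 fragments at the summit, 85.7% had no WT counterpart, against 35.9% of those with 10 to 14, 9.74% of those with 15 to 29 and 2 of 248 regions (0.806%) with at least 30. Of the WT regions, 91.7% with 4 fragments and 87.0% with 5 had no KO counterpart, against 22.2% with 10 to 14, 5.37% with 15 to 29 and 1 of 148 (0.676%) with at least 30. The share on H3K27ac went the other way, to 100% of the regions with at least 30 fragments in both genotypes. Of the lost WT regions, 57.1% had 5 fragments or fewer.

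**Figure D2:**
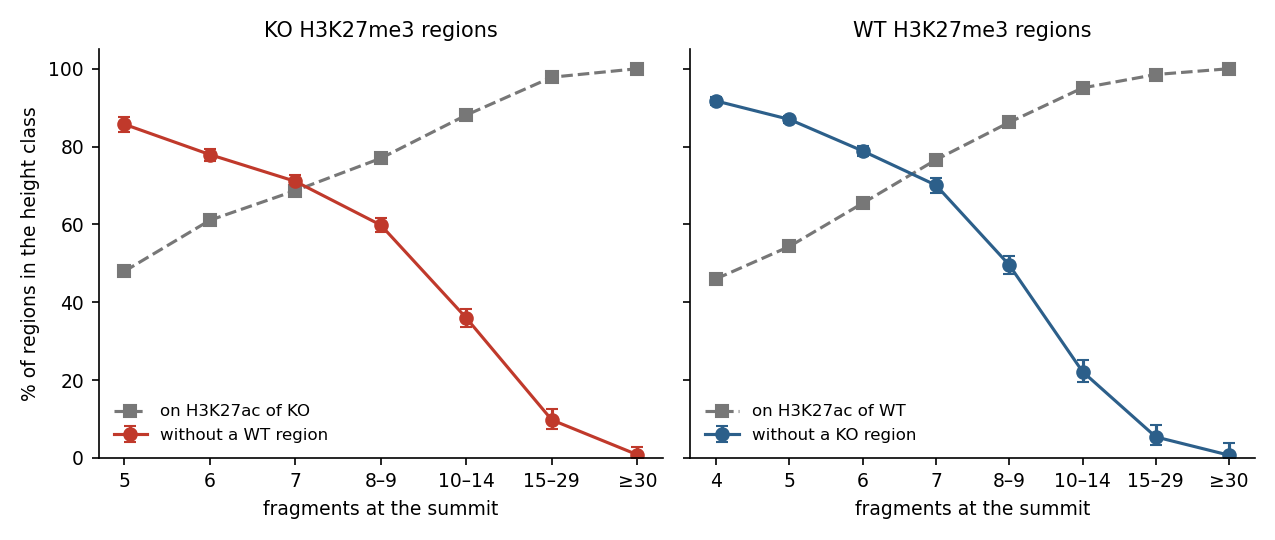
Share of KO regions without a WT region (left) and of WT regions without a KO region (right) by fragments at the summit, with exact 95% intervals, and in grey the share on H3K27ac of the same genotype. The share without a counterpart is 85.7% at 5 fragments in KO and 91.7% at 4 fragments in WT, and under 1% at 30 or more in both.

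Where the regions lay relative to genes differed between genotypes more steadily in direction than their number, though by less at matched height. Within 1 kb of a RefSeq gene start lay 1042 KO regions (8.78%, 8.28 to 9.31%) and 1029 WT regions (5.93%, 5.58 to 6.29%), while windows of that size at all starts cover 2.08% of the effective genome. In the JmjD-dead cells the share was 6.37%. At matched height it was 6.69% of KO regions (5.86 to 7.60%) and 5.64% of WT regions (5.02 to 6.31%). These intervals overlapped, so a difference between the 2 whole lists was not detectable there. Gained regions lay near a start in 10.4% and lost regions in 5.90%. On H3K27ac these shares were 14.0% of gained and 7.31% of lost regions, and off H3K27ac 4.86% of gained and 4.06% of lost regions, where the exact intervals overlapped. Kept regions lay near a start in 263 of 4381 cases in KO and 263 of 4376 in WT. The order of gained over lost regions held under the 7 other settings run, with 9.47% of gained and 6.43% of lost regions at matched height, and 13.4% of gained and 6.77% of lost regions outside the dense bins. H3K27ac itself lay near starts in similar shares, 12999 of 76242 regions in KO and 12175 of 69127 in WT. Among the 10000 strongest H3K27ac regions the share was higher in KO, at 62.8% against 57.6% in WT. Input regions lay near starts in 2.48% in KO and 2.04% in WT. These readouts at starts and promoters were chosen after the data had been seen.

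Around the start, summits were sparser in WT than in KO, and in both lists sparser than further downstream. In the 200 bp that begin 200 bp downstream of the start lay 38 KO summits (0.335% of the 11335 KO regions outside chromosome 8) and 12 WT summits (0.0723% of the 16602 WT regions outside it). In the 200 bp just upstream of it lay 41 KO summits (0.362%) and 20 WT summits (0.12%). In the 200 bp that begin at the start itself lay 31 KO summits (0.273%) and 17 WT summits (0.102%). In the JmjD-dead list the shares were 0.146% in the first of these windows and 0.115% in each of the others, nearer to WT than to KO. The KO and WT lists had most summits 1200 to 1399 bp downstream, with 139 in KO (1.23%) and 167 in WT (1.01%). In all, 72 KO summits (0.635%) and 37 WT summits (0.223%) lay within 200 bp of a start, and 82 JmjD-dead summits (0.23%). Input summits lay there in 28 cases in KO (0.263%) and 4 in WT (0.0895%). So the input share was also higher in KO at this distance, though on few summits. Chromosome 8 was not used in these profiles or for the promoters below.

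**Figure D3:**
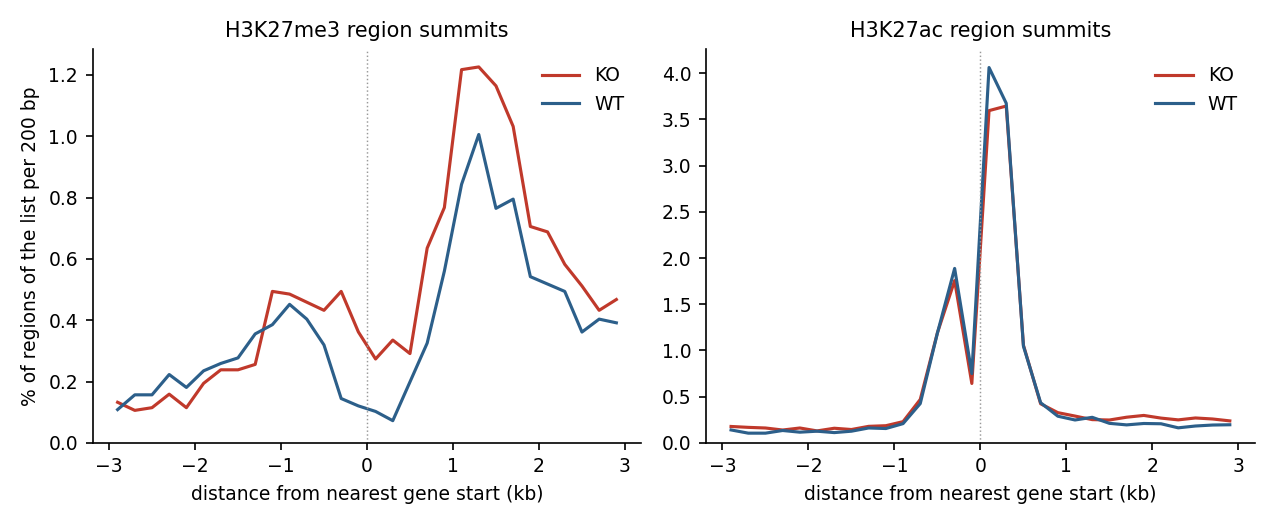
Share of the regions of a list outside chromosome 8, per 200 bp, whose summit lies at the given distance from the nearest gene start, along the direction of transcription, for H3K27me3 (left) and H3K27ac (right), KO in red and WT in blue. The WT H3K27me3 curve falls to 0.0723% just downstream of the start where KO is at 0.335%, and the H3K27ac curves of the genotypes nearly coincide.

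At the 300-bp promoters themselves, gains outnumbered losses. Of 15812 protein-coding promoters, 132 overlapped a region in KO only, 41 in WT only and 28 in both, although the KO list was the shorter. Some neighbours share a region: the 160 promoters overlapped in KO lay on 144 regions, and the 69 in WT on 67. Of the 132, 32 lay in dense bins, against 573 of all promoters. Intervals given below for promoters treat such linked members as separate. Gains also outnumbered losses at −log10 q of at least 5, with 69 gained and 5 lost, at matched height, with 35 and 12, and outside the dense bins, with 100 and 35. Nearly all gained promoters were active by H3K27ac: 126 of 132 (95.5%) carried it in KO or WT cells, against 30 of 41 lost promoters (73.2%), 27 of 28 kept promoters and 9113 of all 15812 (57.6%). In the JmjD-dead cells 29 of the 132 gained promoters overlapped an H3K27me3 region, against 10 of the 41 lost, 25 of the 28 kept and 179 of all 15812 promoters.

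Gained promoters were richer in CpG than lost promoters. The median ratio of observed over expected CpG was 0.829 in gained, 0.342 in lost and 0.482 in kept promoters, beside 0.763 over all promoters and 0.86 over promoters with H3K27ac but no H3K27me3 region. A ratio of at least 0.6, the usual bound of a CpG island, was reached by 100 of 132 gained promoters (75.8%), 9 of 41 lost and 7 of 28 kept promoters, beside 65.8% of all and 89.1% of the acetylated promoters with no H3K27me3 region. So gained promoters, nearly all acetylated, lay above the share of all promoters and below that of acetylated ones. Median GC content was 63.5% in gained and 54.7% in lost promoters. At matched height the median ratios were 0.862 in 35 gained and 0.332 in 12 lost promoters. Over all promoters that a list overlapped, the median ratio was 0.782 in KO, 0.399 in WT and 0.421 in JmjD-dead cells. The motif GGGCGG, the box read by SP1-type factors and itself built around a CpG, stood on either strand in 66.7% of gained, 43.9% of lost and 58.5% of all promoters, and in 73.9% of acetylated promoters with no H3K27me3 region. CCGGAA, the core of many ETS family sites and likewise with a CpG, stood in 27.3% of gained, 9.76% of lost and 22.8% of all promoters, and in 33.6% of acetylated promoters with no H3K27me3 region. A match is a string of letters and not a bound site. The sequences above show the contrast, with 29 CpGs in the gained promoter of TMEM141 against 8 in the lost promoter of TREML2, while BST2 shows that gained promoters also include CpG-poor ones.

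**Figure D4:**
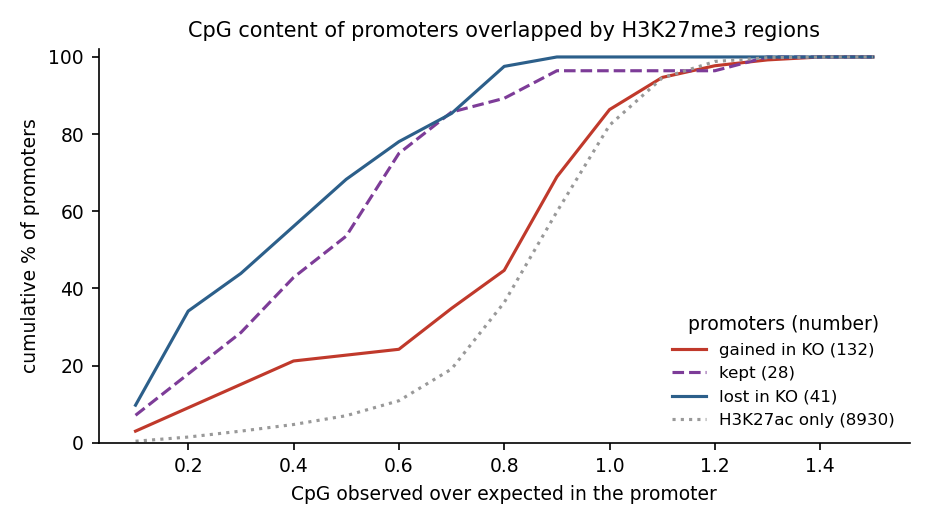
Cumulative share of promoters up to a given ratio of observed over expected CpG, for promoters gained in KO, kept, lost in KO, and promoters with H3K27ac but no H3K27me3 region; the legend gives the numbers. The gained curve, with a median of 0.829, lies above that of the acetylated promoters at low ratios. A ratio of 0.6 is reached by 75.8% of gained and 89.1% of acetylated promoters. The lost curve, with a median of 0.342, lies to the left of both.

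Histone genes made up the clearest group among the gained promoters. In the cluster on chromosome 1 (chr1:149809821-149890715), which encodes core histones made in S phase, 9 of 11 promoters overlapped a KO region and none a WT region. They were those of H2AC18, H2AC19, H2AC20, H2BC18, H2BC21, H3C14, H3C15, H4C14 and H4C15. The KO region over the promoters of H2AC20 and H2BC21, a divergent pair, had 14 fragments at its summit, that over H3C14 had 15, that over H2AC19 and H3C15 had 13 and that over H4C15 had 12. Across the 80.9 kb of the cluster lay 22 KO and 16 WT regions, so the WT cells were marked there as well, but beside the promoters. Counted by gene within 2.5 kb, 10 of the 11 genes were marked in both genotypes and 1, H2BC21, in KO only. All 11 promoters carried H3K27ac in both genotypes, and all lie in dense bins. None overlapped an input region, but the input libraries were too shallow for this to be a check on background. KDM6A regions stood at 2 of the 11 promoters in KO and at 9 in WT cells, and H3K27me3 regions of the JmjD-dead cells at 4. H2AC18 and H2AC19, H3C14 and H3C15, and H4C14 and H4C15 are near-identical copies whose reads the mapping could split. In the larger histone cluster on chromosome 6, 3 of 46 promoters were gained, those of H2AC11, H2BC11 and H2BC12, and none was kept or lost. Counted by gene, 4 of its 51 genes were gained (7.84%), close to the 6.83% over all genes unmarked in WT. None of the 51 was marked in WT, so none could be lost. The chromosome 1 list was chosen after its values were seen.

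Other gained promoters, named after their values were seen, belonged to SPATC1L with 23 fragments at the KO summit, ADAM17, the sheddase of TNF and other membrane proteins, with 15, RRP7A and PRRC2A with 12, MAT2A, which makes S-adenosylmethionine, with 11, and PCF11, a factor of transcript cleavage, with 11. The lost promoters included TREML2, a receptor of myeloid and B cells, with 10 fragments at the WT summit, ARHGAP45 and CATSPERH with 8, and SPACA3, DDR2 and NME2 with 7. The TAF11L family on chromosome 5 was split, with TAF11L3, TAF11L4 and TAF11L10 kept and TAF11L5, with 8 fragments, and TAF11L7, with 6, lost. Kept promoters also included MEF2D and CSK, the kinase that restrains Src family kinases.

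Regions of the KDM6A antibody stood at a larger share of the gained promoters than of all promoters, in WT and in KO cells. In WT cells 20 of the 132 gained promoters (15.2%, 9.51 to 22.4%) overlapped a KDM6A region, against 4 of 41 lost promoters (9.76%, 2.72 to 23.1%) and 225 of all 15812 (1.42%). Among promoters with H3K27ac in both genotypes and no H3K27me3 region the share was 1.70%. In the KO cells' KDM6A list, from a deeper library, 6 of the gained promoters (4.55%), 5 of the lost and 163 of all promoters (1.03%) overlapped a region. KDM6A regions that were in the WT list only stood at 17 of the gained promoters (12.9%, 7.68 to 19.8%), at 1 of the lost (2.44%, 0.0617 to 12.9%) and at 158 of all promoters (0.999%). The intervals of gained and lost promoters overlapped in both counts, so a difference between these 2 classes was not detectable at this number. Outside the dense bins the count was 10 of 100 gained promoters, none of 35 lost and 143 of 15239 in all (0.938%). Kept promoters, many in repeated gene families, had KDM6A regions in 10 of 28 cases in KO cells and 12 of 28 in WT cells. Of the 17, 6 were histone genes of the chromosome 1 cluster, H2AC18, H2AC19, H2AC20, H2BC21, H3C14 and H3C15. The others included ADAM17, BHLHE40, FKBP5, NRDC, PJA2, TC2N, and BST2 with its divergent neighbour MVB12A. BST2 (tetherin) is an interferon-induced membrane protein, and the KO region over its promoter had 7 fragments. Most gained promoters had no KDM6A region in WT cells.

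Most regions gained or lost on H3K27ac also overlapped an H3K27ac region of the other genotype, though less often than kept ones. Such overlap does not measure the level of acetylation. Of the gained regions on H3K27ac in KO, 78.8% also overlapped an H3K27ac region in WT cells, and of the kept KO regions on H3K27ac 93.2% did. Of the lost regions on H3K27ac in WT, 80.7% still overlapped an H3K27ac region in KO cells, and of the kept WT regions on H3K27ac 94.6% did. H3K27me3 regions of the JmjD-dead cells lay over 50.9% of gained and 43.8% of lost regions on H3K27ac, and over 88.5% of the kept WT regions. Off H3K27ac they lay over 35.1% of gained and 22.2% of lost regions. The JmjD-dead list held 37236 regions from 10.4 M fragments, so these shares also carry its length. KDM6A regions of the WT list only lay over 12.9% of gained and 12.9% of lost regions on H3K27ac, and off H3K27ac over 14.7% of gained (13.4 to 16.0%) and 10.9% of lost regions (10.1 to 11.8%). With −log10 q of at least 5 against every region of the other list, the order on H3K27ac was the other way, 14.6% of gained (12.9 to 16.4%) and 18.9% of lost regions (16.4 to 21.7%), so no direction is drawn.

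Seen from the H3K27ac side, the highest acetylation carried H3K27me3 regions most often. In KO cells 9.89% of H3K27ac regions overlapped an H3K27me3 region, and in WT cells 14.0%. In decile 1 by q value, the strongest, the share was 21.5% in KO and 28.7% in WT, and in decile 10 it was 3.08% in KO and 5.41% in WT. The deciles were not matched for the width of the H3K27ac regions and include the dense bins, so strength is not separated from either. H3K27ac regions shared by the genotypes carried one in 13.4% of cases in KO and 17.3% in WT, and those found in 1 genotype only in 3.51% in KO and 6.18% in WT.

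At the level of genes, 2169 of 19974 protein-coding genes were marked in KO and 2570 in WT, counting a region within 2.5 kb of either end of the gene. Marked in both were 980 genes, which are called kept below whether or not their regions overlapped. In 588 of them (60%) a KO region at the gene overlapped a WT region, and heights given for a gene are those of its highest ranked region in each list. Gained were 1189 of the 17404 genes unmarked in WT (6.83%), and lost were 1590 of the 2570 genes marked in WT (61.9%). At −log10 q of at least 5 the counts turned to 635 gained (3.24%) and 190 lost genes (53.5%), and against every region of the other list to 328 gained (1.88%) and 114 lost (32.1%). At equal list lengths they were 1367 gained (7.52%) and 1000 lost (55.5%), and at matched height 272 gained (1.41%) and 528 lost (74.5%). Of the genes marked on H3K27ac, 850 of 1717 in KO were gained (49.5%) and 933 of 1740 in WT were lost (53.6%). Of those marked off H3K27ac, 339 of 452 in KO were gained (75.0%) and 657 of 830 in WT were lost (79.2%). Genes without H3K27ac in either genotype, the usual place of H3K27me3, were marked least, at 1.08% in KO and 1.44% in WT, against 16.9% in KO and 19.9% in WT of the genes with H3K27ac in both. The JmjD-dead list marked 52.6% of gained, 52.1% of lost, 84.9% of kept and 13.7% of unmarked genes.

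Single genes were named by rank of their region. The strongest gained genes on H3K27ac, with no WT region within 10 kb, were MLC1, a membrane protein of astrocytes, whose KO region just outside the gene had 20 fragments, TMEM141 with 14, CCNF (cyclin F) with 13, and COX8A, a subunit of cytochrome c oxidase, and LRRC37A3 with 12 each. The strongest gained genes off H3K27ac were PRRT4 with 12 fragments, the divergent pair of the repair gene ERCC8 and NDUFAF2, an assembly factor of respiratory complex I, with 10, VAPB with 10 and LOC124902669 and FAM90A13 with 9. The regions of these named genes had 9 to 20 fragments, while the lists of genes below include gained genes with as few as 5.

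The strongest lost genes on H3K27ac, with no KO region within 10 kb, were GTF3C5, a subunit of TFIIIC, together with the overlapping LOC124902325, with 12 fragments in WT cells. RPS15, a ribosomal protein, TREML2 and GLT6D1 followed with 10 fragments and SYNGR4 with 9. Off H3K27ac the strongest lost genes were ACY3, C1orf159 and BOD1 with 10 fragments and TMCC2 and the neighbours NDUFA1 and RNF113A with 9. The regions of these named genes had 9 to 12 fragments, while the lists of genes below include lost genes with as few as 4. Kept genes on H3K27ac led by rank were LOC107986800, with 190 fragments in KO and 81 in WT, LOC102724652, with 57 in KO and 35 in WT, ASAP2, with 33 in KO and 38 in WT, and the related FRG2C, with 67 in KO and 29 in WT, and FRG2, with 33 in KO and 26 in WT. Kept genes off H3K27ac were lower: USP17L18 had 15 fragments in KO and 10 in WT, FCGR1A 9 in KO and 8 in WT, USP18, the interferon-induced protease of ISG15, 8 in both, DPEP1 10 in KO and 7 in WT in regions that did not overlap, and MED26 and SLC35E1 shared a region of 7 in both.

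Known Polycomb target families were rarely marked, and ribosomal protein genes often. Lists are described by counts beside the shares over all genes, 10.9% marked in KO and 12.9% in WT. Of 39 HOX genes, 1 was marked in KO (HOXA9, gained, 6 fragments) and 3 in WT (HOXB4 with 8, HOXC10 with 5 and HOXB7 with 4, all lost). Of 40 developmental regulators 1 was marked in KO (ONECUT1, gained, 8 fragments) and 1 in WT (NEUROG2, lost, 5 fragments). None of 53 protocadherin genes was marked in either genotype, and of 19 imprinted genes none was marked in KO and 2 in WT, CDKN1C and MKRN3. Of 78 ribosomal protein genes, by contrast, 25 were marked in KO and 27 in WT, with 9 gained, 11 lost and 16 kept, 11 of these with overlapping regions. The gained were 17.6% of those unmarked in WT, beside 6.83% over all genes, and the lost 40.7% of those marked in WT, beside 61.9%. All 78 carried H3K27ac in both genotypes. Over all genes with H3K27ac in both, 16.9% were marked in KO and 19.9% in WT. Of those unmarked in WT 11.2% were gained, and of those marked in WT 59.7% were lost. RPL32 was the highest ribosomal protein gene, with 14 fragments in KO and 9 in WT, followed in KO by RPS10, with 11 in KO and 6 in WT. Of 20 housekeeping genes 5 were marked in KO and 8 in WT, among them GAPDH, gained with 8 fragments, and ACTB, lost with 7. Of 31 proteasome genes 3 were marked in KO and 6 in WT.

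The antigen presentation genes, which the title of the study touches on, went both ways. Of 21 genes of MHC class I presentation 9 were marked in KO and 8 in WT. The 4 gained were 30.8% of the 13 unmarked in WT, beside 6.83% over all genes. The 3 lost were 37.5% of the 8 marked in WT, beside 61.9% over all genes. Genes with H3K27ac in both genotypes were marked at 16.9% in KO and 19.9% in WT. Of these, 11.2% of those unmarked in WT were gained and 59.7% of those marked in WT were lost. Among the 21 class I genes, H3K27ac stood at 20 in each genotype. Gained were HLA-E and PSMB10 with 8 fragments, PSME2 with 7 and PDIA3 with 6, and among the lost were HLA-B with 6 and the peptidase ERAP1 with 4. CALR, the chaperone calreticulin, was kept with 8 fragments in KO and 6 in WT, PSME1 with 8 in KO and 6 in WT, and the immunoproteasome gene PSMB8 with 6 in KO and 9 in WT. TAP1, which shares its WT region with PSMB8, and PSMB9 were kept as well, so 5 genes were. Each of the 5 had an overlapping pair of regions, though for CALR, PSMB8 and TAP1 these were not both the highest ranked ones. Of 16 genes of class II presentation 2 were marked in KO and 3 in WT. CIITA, the class II transactivator, was kept with 8 fragments in KO and 7 in WT, RFX5 was gained with 7, and RFXANK with 6 and HLA-DMB with 5 were lost. Of 30 interferon response genes 6 were marked in KO and 5 in WT, with IFITM3 (10 fragments), MX2 (8), MX1 and BST2 (7 each) gained, IFITM1, IFITM2 and OAS3 (6 each) lost, and IRF7 and USP18 kept. IFITM1 and IFITM2 shared 1 WT region.

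Among 20 plasma cell genes 4 were marked in KO and 6 in WT. IL6R, the receptor of the myeloma growth factor IL-6, was lost with 9 fragments, SLAMF7 with 8 and SDC1, which encodes CD138, with 5, while CCND2, the cyclin overexpressed in part of myelomas, was gained with 6. MZB1 was kept with 7 fragments in KO and 8 in WT, GPRC5D with 7 in KO and 6 in WT in regions that did not overlap, and CD27 with 6 in both. Of 20 B cell genes 3 were marked in KO and 4 in WT: IKZF3 was marked with 10 fragments in both and TCF3 with 6 in KO and 4 in WT, each in regions that did not overlap, CIITA was kept as above, and CD79A was lost with 5. Of 27 chromatin regulators 3 were marked in KO and 5 in WT. The PRC2 genes split, with SUZ12 gained with 5 fragments, EZH2 lost with 5 and RBBP4 lost with 4, RBBP5 was lost with 5, and RING1 and KMT2B were kept with 6 in KO, against 4 in WT for RING1 and 6 in WT for KMT2B. Most of these heights lie near the lowest that the lists hold, 5 in KO and 4 in WT, where most regions were not found again in the other library.

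**Figure D5:**
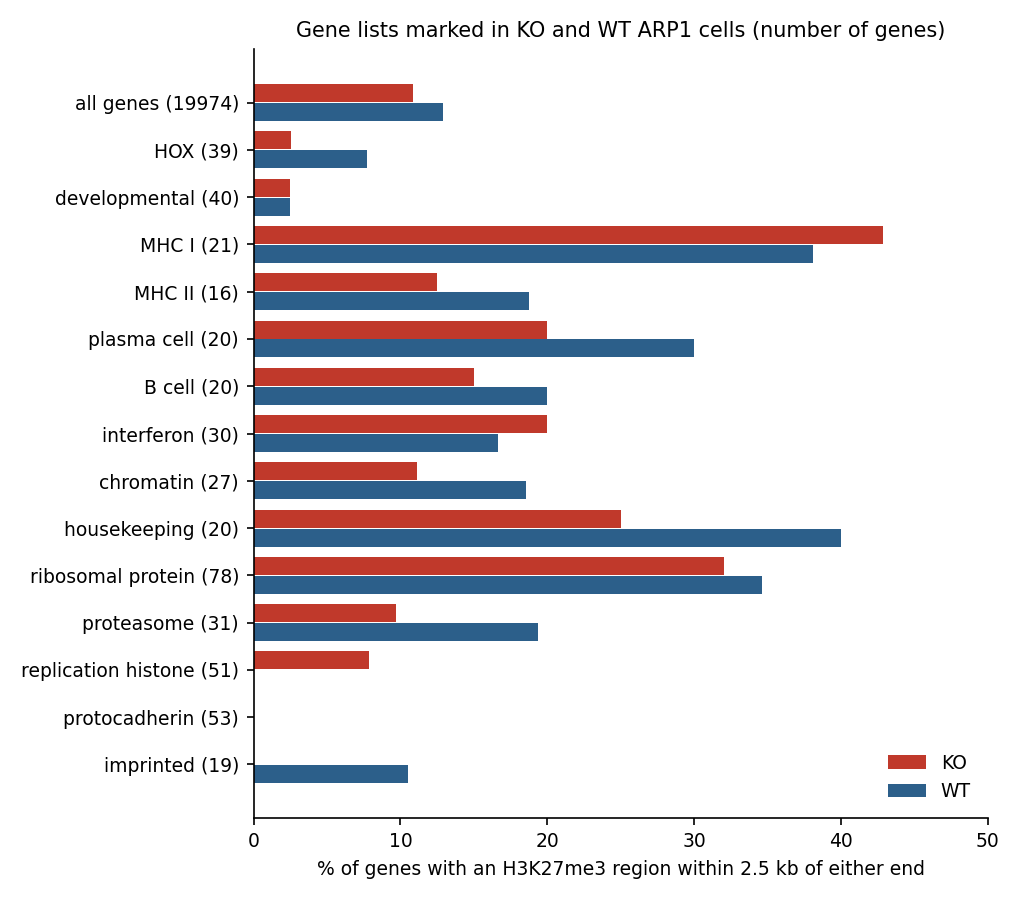
Share of the genes of each list with an H3K27me3 region within 2.5 kb of either end in KO (red, upper bar) and WT (blue, lower bar) ARP1 cells; the horizontal axis is in percent and the number of genes stands beside each list. Over all genes the shares are 10.9% in KO and 12.9% in WT. The MHC class I and II, plasma cell, B cell, interferon, chromatin, housekeeping and ribosomal protein lists lie above both. Developmental regulators lie at 2.5% in both genotypes.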

How the data were processed

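Every library was analysed from the region lists that the authors deposited, 1 per library. Per the file headers, regions were called by MACS2 2.2.7.1 on paired fragments of merged alignments, without a control, with a fixed background over the whole genome (an effective genome of 2700 Mb), duplicates removed and q of 0.05. Per the submitters' processing notes the reads were trimmed with Trimmomatic and aligned to GRCh38 with Bowtie2, and MACS2 2.1.2 is named there. The headers of the KDM6A and H3K4me1 lists name another MACS version, 2.1.1.20160309. Columns used were the pileup, a signal deposited by the authors as fragment coverage at the summit, the −log10 q deposited by the authors, and the fold over background deposited by the authors, used to rank regions within a list. A fixed background does not correct for copy number or open chromatin, and narrow calling splits broad domains.

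Regions were ranked by −log10 q, fold, pileup and width. Genes are the 19974 protein-coding genes of RefSeq (GRCh38.p14), of which 15812 had a promoter sequence. Dense bins are 1-Mb bins holding over 10 times the median count in either list. Named genes are the 5 of each class (kept, lost or gained, on or off H3K27ac) with the highest ranked regions, plus members of 15 gene lists (476 of 478 members found). The rule, members and lists were chosen with earlier results of these data known, and the readouts at promoters, the matched height and the chromosome 1 histone list after seeing the values. Overlaps were tested on simulated data. Some listed genes enter the counts but are not reported here by name. No test between genotypes was possible with n = 1 each. Analyses used Python 3.11.15, pandas 2.3.3, numpy 2.4.6, scipy 1.17.1 and matplotlib 3.10.9.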

Additional observations from a re-analysis of the deposited data

How the results depend on the processing

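Over all regions, gained and lost counts were given above, and 40 of 72 alternative values lay within 1.5 times of them, among them all those with 50% overlap, without regions on input, without chromosomes 2 and 11 and with either H3K27ac list. The rest follow, and for none was the cause tested. At −log10 q of at least 5 there were 3386 gained regions (2631 on and 755 off H3K27ac) and 1385 lost regions (1167 on and 218 off), with 635 genes gained and 190 lost. Against every region of the other list there were 2245 gained (1637 on, 608 off) and 1039 lost (856 on, 183 off), with 328 genes gained and 114 lost. At matched height, added after seeing the data, there were 1584 gained (1259 on, 325 off) and 3360 lost (2664 on, 696 off), with 272 genes gained and 528 lost. At equal list lengths 7950 regions were lost, 2828 of them off H3K27ac, and 1000 genes. Without the dense bins 4872 regions were gained, 1804 of them off H3K27ac. With a window of 1 kb 742 genes were gained and 810 lost, and with 10 kb 2616 were lost. So losses outnumber gains over all regions, without dense bins and at matched height, and gains outnumber losses under both q thresholds.

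No library can be left out with 1 per genotype. No paired analysis was possible because each genotype has 1 library. Depth limits the lists to regions of at least 5 fragments in KO and 4 in WT, so absence from a list is not absence of the mark. The input lists come from far fewer fragments, so leaving out regions on input is a weak check. Library, clone and genotype cannot be told apart.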

Other observations

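The lists labelled H3K4me1 of the same cells differed at starts in the other direction and by more. In KO cells 6.72% of the H3K4me1 regions lay within 1 kb of a start and 537 overlapped a promoter, while in WT cells 14.2% lay within 1 kb of a start and 8649 overlapped a promoter. At the 132 promoters where H3K27me3 was gained, H3K4me1 regions stood at 22 in KO and at 123 in WT. Over all 15812 promoters H3K4me1 regions stood at 547 in KO and at 9187 in WT. At the 41 lost promoters they stood at 16 in KO and at 28 in WT. The lower count in KO was thus not particular to gained promoters. At the 11 histone promoters of chromosome 1 H3K4me1 regions stood at none in KO and at 11 in WT. Among the 10000 strongest H3K4me1 regions 5.05% lay within 1 kb of a start in KO and 60.5% in WT, a share close to the 57.6% of H3K27ac in WT cells. By position the list labelled H3K4me1 in WT is thus closer to an H3K27ac list than to the H3K4me1 list of KO cells. Whether that label is right is unsure, so these counts are given by label only. Whether the difference belongs to the genotype was not tested, and it was found after the data had been seen.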
